A study of Mus musculus with 6 samples.

Results

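Haematopoietic stem cells (HSC) and common myeloid progenitors (CMP), both sorted from the bone marrow of wild-type mice, were compared directly, library against library. The 3 wild-type HSC libraries and the 3 wild-type CMP libraries are 6 of the 36 libraries of the series, and they were taken by population and genotype as labelled, not by any measured value. Each library was made from a sort of 15 cells with CEL-Seq2, in which transcripts are barcoded and read near their 3′ end. HSC were taken as LSK cells (no lineage markers, Sca-1 and cKit both present) that carried CD150 and lacked CD34, Flt3 and CD48. CMP were taken as cKit and CD34 positive cells with low CD16/32 and without lineage markers, Sca-1 or IL7r. The other genotype of the series, Mof -/+, is heterozygous for Mof, the histone acetyltransferase gene listed in the tables as Kat8, and its 3 HSC and 3 CMP libraries show the same pair of populations in other libraries. The labels give no age, strain, allele structure or number of animals. They place HSC in an early progenitor pool and CMP in a late progenitor pool, so population and sequencing pool cannot be told apart in any difference given here. Whether the 3 libraries of a population are 3 animals or 1 is not stated, and each p-value is set against library-to-library spread alone, which may be technical.

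An HSC can renew itself for life and gives rise to every blood lineage, and it is mostly out of the cell cycle. A CMP has lost that capacity, divides, and forms granulocytes, monocytes, red cells and megakaryocytes. Granule proteases such as myeloperoxidase are among the first products of the myeloid lineage, whereas transcription factors such as Hlf and surface proteins such as Sca-1 mark the stem cell in the mouse.

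In wild-type HSC, genes of the neutrophil granule lay far below CMP. Mpo had 1 count in the 3 HSC libraries together and 332 counts in the 3 CMP libraries, and Ctsg, Elane and Rab44 had no count in any HSC library. Genes above CMP included Gimap6, Pim1, Car2, Jund and, when 1 HSC library was left out, the stem cell genes Hlf, Ly6a and Mllt3. Some genes of red cells, led by the globin Beta-s, were also above CMP, mostly in HSC replicates 2 and 3.

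Depth and cell makeup differed between the libraries. The HSC libraries held 29086, 35094 and 30569 gene counts, and the CMP libraries 55705, 75742 and 76418. A single count was therefore worth 28.5 to 34.4 CPM (a gene's share of all gene counts in its library, scaled to 1000000) in HSC and 13.1 to 17.95 CPM in CMP, and a gene seen at 0 in HSC is less firmly placed than the same in CMP. Over the 6701 genes tested, Spearman's rho between libraries, across genes, was 0.33 to 0.44 within HSC, 0.67 to 0.69 within CMP and 0.41 to 0.50 between the populations.

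HSC replicate 3 went against its label. The 37 HSC genes of a list of known markers summed to 9077, 7950 and 1865 CPM in HSC replicates 1, 2 and 3, against 2477, 2350 and 2447 CPM in CMP replicates 1, 2 and 3. Hlf, Meis1, Gata2, Ifitm1 and Angpt1 were at 0 in HSC replicate 3, and Kit, part of the gate, was at 32.7 CPM there. Markers of B lineage cells (16 in the tables) summed to 103, 1368 and 9748 CPM in HSC, against 162, 172 and 209 CPM in CMP, with Cd79a at 1178 CPM and Vpreb3 at 1407 CPM in HSC replicate 3. The 25 erythroid genes in the tables summed to 8595, 38782 and 29539.7 CPM in HSC, against 2747, 1941 and 2447 CPM in CMP. HSC replicates 2 and 3 also carried 8036 and 9519 CPM of 33 mitosis genes, against 1925 CPM in HSC replicate 1 and 1743 to 2486 CPM in CMP. In CMP replicate 2, mature neutrophil markers (12 in the tables) summed to 6971 CPM, against 1687 and 707 CPM in CMP replicates 1 and 3, and the basophil protease Mcpt8 was at 343 CPM there and at 0 in the other two. Markers of T and NK cells stayed at 69, 342 and 491 CPM in HSC and at 36 to 79 CPM in CMP. Markers of macrophages and dendritic cells, and of stroma, were at or below 98.1 CPM and 103 CPM in HSC, and at or below 224 CPM and 91.6 CPM in CMP. Beside many results the value without HSC replicate 3, or without HSC replicates 2 and 3, is also given. In sorts of 15 cells, fewer cells of a type and less RNA per cell cannot be told apart.

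**Figure D1:**
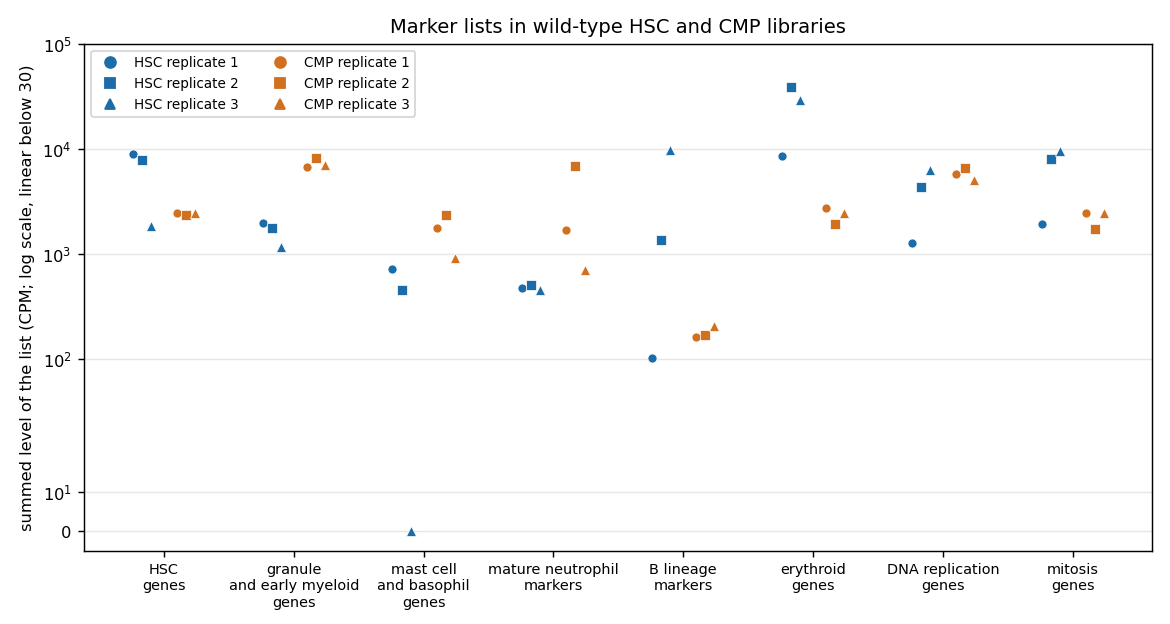
Summed expression of 8 marker lists in each library, in CPM on an axis that is logarithmic above 30 CPM and linear below, with HSC replicates left of CMP replicates and each point 1 library. HSC replicate 3 sits at 1865 CPM for HSC genes and at 9748 CPM for B lineage markers.

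Between wild-type HSC and CMP, limma with Benjamini-Hochberg adjustment called 11 genes higher in HSC, which is 0.164% of the 6701 genes tested, and 16 genes lower, which is 0.239%. The test used log2(scaled count + 1), so that fold changes of low genes are understated, and a threshold of 0.05 on the adjusted p. An unadjusted p under 0.05 was reached by 729 genes. With TMM scaling in place of library totals, limma called 10 genes higher and 41 lower. The edgeR quasi-likelihood test on the recovered counts, which keeps only genes with enough counts, called 19 genes higher (2.62% of 726 tested) and 14 lower (1.93%). The tests shared 7 of the higher and 12 of the lower calls. The 3 HSC values lay wholly above the 3 CMP values for 428 genes (6.39%) and wholly below for 684 genes (10.2%). The median log2 difference over all 6701 genes was -0.10, and it was -0.23 with TMM scaling, a shift of -0.13 that touches every difference given here; 44.0% of the genes had a positive difference.

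Leaving out HSC replicate 3, limma called 28 genes higher (0.42% of 6661) and 45 lower (0.676%), and among these were 10 of the 11 higher and all 16 of the 16 lower calls made with all libraries. Of the genes that passed the edgeR quasi-likelihood test and not limma with all libraries, Prtn3, Hspe1, Gimap1, Mcl1, Mki67, Msn, Cd24a and Gm17821 missed the edgeR threshold without HSC replicate 3, at adjusted p of 0.0544 to 0.117. Leaving out HSC replicates 2 and 3, which leaves 1 HSC library whose spread is assumed to be that of the CMP libraries, 1 gene was called higher (Hlf) and 19 lower. Of the calls made with all libraries, 0 of the 11 higher and 8 of the 16 lower ones were called then, although all 27 kept their sign. Leaving out each other library in turn gave 118 calls without HSC replicate 1, 6 without HSC replicate 2, and 4, 7 and 8 without CMP replicates 1, 2 and 3. Mpo, Ctsg and Beta-s were called in all 6 of these fits and Plac8 in 5. Each of the other 23 genes lost its call in 2 or more of the 6: Car1, Alas2 and Gimap6 were called in 4, Rab44, Elane, S100a9 and Wdr89 in 3, Ltb and Hba-a1 in 1 and the rest in 2.

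The genes of the primary granules of neutrophils and their precursors held more limma calls below CMP than any other list. Of 22 granule and early myeloid genes, 19 were tested, and limma called 4 lower in HSC and 0 higher (background 0.239% lower). Only 1 of the 19 differences was positive, the median was -1.71 against -0.10 over all genes, and 11 of the 19 had every HSC value below every CMP value, against 10.2% of all genes. Members with few or no HSC counts, such as Mpo, Ctsg and Elane, passed the filter on low values (a mean of 22.0 CPM) only through CMP. The count of signs, the median and the count without overlap are therefore in part set by that filter. Summed over the list, HSC libraries had 1994, 1767 and 1178 CPM, against 6696, 8212 and 7093 CPM in CMP libraries, so the groups did not overlap. The median was -1.75 without HSC replicate 3.

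Mpo, which encodes myeloperoxidase, had 34.4, 0 and 0 CPM in HSC, against 1795, 1426 and 1623 CPM in CMP. The single HSC count lies in replicate 1, and no HSC value came near a CMP value. The log2 difference was -5.76 (SE 0.45), with an adjusted p of 1.72e-07 by limma, and the ratio of pooled levels, HSC over CMP, was 0.00661, with an exact 95% interval of 0.000167 to 0.0371 that covers counting error only. Without HSC replicate 3 the difference was -5.53 (limma adjusted p 5.6e-08), and without HSC replicates 2 and 3 it was -4.85 (limma adjusted p 6.71e-04).

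The 3 serine proteases stored with myeloperoxidase had the same direction. Ctsg, which encodes cathepsin G, had 0 CPM in all 3 HSC libraries, against 323, 528 and 314 CPM in CMP. With 0 counts in HSC and 82 in CMP, it was at least 12.5-fold lower (floor of 3 counts over the HSC group), and limma gave it an adjusted p of 2.36e-04. Elane, which encodes neutrophil elastase, had 0 CPM in all 3 HSC libraries, against 413, 277 and 78.5 CPM in CMP. It was at least 7.6-fold lower by the same floor (limma adjusted p 0.014). Prtn3, which encodes proteinase 3, was not absent from HSC, with 138, 142 and 0 CPM, against 341, 502 and 798 CPM in CMP. Its HSC and CMP values did not overlap, and its log2 difference was -2.32 in the edgeR quasi-likelihood test, which it passed (adjusted p 0.0426), and -2.69 (SE 0.61) in limma, where it missed the threshold (adjusted p 0.0606). Without HSC replicate 3, the library with none, the limma difference was -1.73 (adjusted p 0.0304) and the edgeR difference -1.82 (adjusted p 0.0606).

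Since these 4 genes were low together, their promoters are shown, 250 bases before to 50 bases after the RefSeq start on the gene's own strand. The intervals on GRCm38.p6 are chr11:87793534-87793833 (+) for Mpo, chr10:79886062-79886361 (+) for Elane, chr10:79879417-79879716 (+) for Prtn3 and chr14:56102525-56102824 (-) for Ctsg. Capitals mark AGGAAGT, a form of the core that ETS factors such as PU.1 bind.
Mpo: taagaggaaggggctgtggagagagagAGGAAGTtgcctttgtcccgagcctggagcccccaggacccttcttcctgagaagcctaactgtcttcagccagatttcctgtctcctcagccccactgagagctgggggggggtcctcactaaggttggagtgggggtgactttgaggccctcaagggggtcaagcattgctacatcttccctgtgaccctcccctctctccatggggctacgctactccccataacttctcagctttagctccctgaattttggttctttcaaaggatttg
Elane: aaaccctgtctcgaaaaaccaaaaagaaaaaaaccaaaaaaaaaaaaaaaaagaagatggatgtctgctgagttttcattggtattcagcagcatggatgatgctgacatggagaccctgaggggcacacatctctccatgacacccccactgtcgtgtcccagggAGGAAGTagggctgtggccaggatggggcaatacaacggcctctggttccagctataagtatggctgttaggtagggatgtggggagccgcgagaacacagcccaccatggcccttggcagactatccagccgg
Prtn3: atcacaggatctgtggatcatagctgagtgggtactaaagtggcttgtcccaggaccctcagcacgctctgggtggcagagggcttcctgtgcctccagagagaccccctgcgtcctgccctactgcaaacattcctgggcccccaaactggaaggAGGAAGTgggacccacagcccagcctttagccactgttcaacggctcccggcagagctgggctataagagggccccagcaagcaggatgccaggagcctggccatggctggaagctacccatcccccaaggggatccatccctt
Ctsg: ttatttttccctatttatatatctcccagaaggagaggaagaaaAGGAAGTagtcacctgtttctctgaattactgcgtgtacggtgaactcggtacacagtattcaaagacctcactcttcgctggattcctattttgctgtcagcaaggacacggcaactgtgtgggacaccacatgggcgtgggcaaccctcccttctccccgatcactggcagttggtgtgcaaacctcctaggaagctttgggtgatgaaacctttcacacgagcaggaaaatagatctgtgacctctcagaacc

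Each of the 4 windows held AGGAAGT once, starting 223 bases before the RefSeq start in Mpo, 84 in Elane, 94 in Prtn3 and 206 in Ctsg. Searched on both strands (AGGAAGT or ACTTCCT), it was present in 9.35% of 32851 RefSeq mouse promoters of the same length. The shorter GAGGAA (or TTCCTC), which can overlap it, was in all 4 and in 28.3% of all promoters, and TTNNGNAA (or TTNCNNAA), the outline of a C/EBP site, was in 0 of the 4 and in 40.7% of all promoters. The motifs were picked after these sequences had been read, and a match in a window is a description of its letters only.

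By GENCODE vM21 on GRCm38, Mpo spans 87793581 to 87804413 on the forward strand of chromosome 11 and overlaps the antisense gene Gm11505. Prtn3 spans 79874476 to 79883174 on the forward strand of chromosome 10 and overlaps Plppr3 on the reverse strand, and Elane lies beside it at 79886247 to 79888215. Ctsg lies on the reverse strand of chromosome 14 at 56099881 to 56102574. Whether the counting used strand is not stated, so reads of Mpo or Prtn3 and of the overlapping genes cannot be told apart. Other called genes also overlap a gene on the other strand, and the same limit holds for them. Among these are Rab44 (Rpl35a-ps3), Ndufs3 (Kbtbd4), Itsn1 (Atp5o), Hspe1 (Hspd1), Alas2 (Apex2) and B2m (Patl2).

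Plac8, a small cysteine-rich protein abundant in myeloid cells, had 68.8, 114 and 294 CPM in HSC, against 1239, 2059.6 and 1557 CPM in CMP. The highest HSC value, in replicate 3, was still far under the lowest CMP value, and the log2 difference was -3.35 (SE 0.40, limma adjusted p 1.47e-04). S100a9, a calcium-binding protein of mature neutrophils, had 0, 0 and 32.7 CPM in HSC, against 574, 2112 and 105 CPM in CMP. It was called lower (log2 difference -4.19, SE 0.74, limma adjusted p 0.0103), but its CMP values spread widely and the highest stood in CMP replicate 2, the library with the most mature neutrophil transcripts. Without that library it was not called (log2 difference -3.20, limma adjusted p 0.299). Of 9 neutrophil markers tested, S100a9 was the one called (background 0.239% lower). The part of such cells in the result was not tested.

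Of 9 transcription factors of the myeloid lineage tested, limma called 0 in either direction, with a median of -0.41, which was -0.69 without HSC replicate 3 and -1.02 without HSC replicates 2 and 3. Cebpa, the factor that drives granulocyte formation, had no count in HSC and 108, 79.2 and 131 CPM in CMP, at least 3.34-fold lower, with a limma adjusted p of 0.0882 with all libraries and 0.0475 without HSC replicate 3. Gata2, which acts in stem cells and in early red cell, megakaryocyte and mast cell precursors, had 688, 456 and 0 CPM in HSC, against 1472, 792 and 720 CPM in CMP. All HSC values lay below all CMP values, yet the difference did not pass (log2 difference -2.31, SE 0.80, limma adjusted p 0.275), and it shrank to -0.73 (SE 0.32, limma adjusted p 0.314) without HSC replicate 3, which had none. Over 18 factors of stem and erythro-megakaryocytic cells, limma called 0, 2 differences were positive, and the median was -0.60 with all libraries and -0.20 without HSC replicate 3.

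Mast cell and basophil genes had lower values in HSC without passing. Among the 12 listed, 6 were tested, limma called 0, none of the 6 differences was positive and the median was -2.20. They summed to 722, 456 and 0 CPM in HSC, against 1795, 2376 and 916 CPM in CMP. The list includes Gata2, given above, which holds all but 1 of its HSC counts. The other members tested passed the filter on low values (a mean of 22.0 CPM) through CMP alone. The count of signs and the median are therefore not independent of that filter. Cpa3, carboxypeptidase A of mast cells, had 1 count in HSC and 68 in CMP, with a limma adjusted p of 0.0606 with all libraries and 0.0484 without HSC replicate 3. Of 9 megakaryocyte and platelet genes tested, limma called 0, and their median moved to -0.29 without HSC replicate 3, against -1.13 with it.

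The remaining genes below CMP do not share 1 function. Car1, the carbonic anhydrase of the early red cell line, had 0, 28.5 and 0 CPM in HSC, against 431, 330.1 and 576 CPM in CMP, and its log2 difference was -3.98 (SE 0.53, limma adjusted p 4.15e-04). Its relative Car2 went the other way, as given further on. Rab44, a Rab GTPase with a long extra amino-terminal part, had no count in HSC and 305, 251 and 209 CPM in CMP, at least 7.9-fold lower (limma adjusted p 0.00188).

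Gpr97, an adhesion receptor of granulocytes listed in RefSeq as Adgrg3, had 0, 0 and 65.4 CPM in HSC, against 269, 356 and 236 CPM in CMP (log2 difference -3.13, limma adjusted p 0.0164). Fam46a, listed in RefSeq as Tent5a and a member of a family of poly(A) polymerases, had 0, 28.5 and 131 CPM in HSC, against 557, 330.1 and 327 CPM in CMP (log2 difference -2.90, limma adjusted p 0.0271). Both were higher in HSC replicate 3 than in the other two HSC libraries, and both still lay below every CMP library. Wdr89 and Igfbp4, an IGF-binding protein, were called lower with log2 differences of -2.21 (limma adjusted p 0.0164) and -2.17 (limma adjusted p 0.0316). Ndufs3, a subunit of respiratory complex I, had no count in HSC and 144, 158 and 91.6 CPM in CMP, at least 4.1-fold lower (limma adjusted p 0.0444). It was the only one called of 81 nuclear respiratory chain genes, whose median was -0.25 (background 0.239%).

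**Figure D2:**
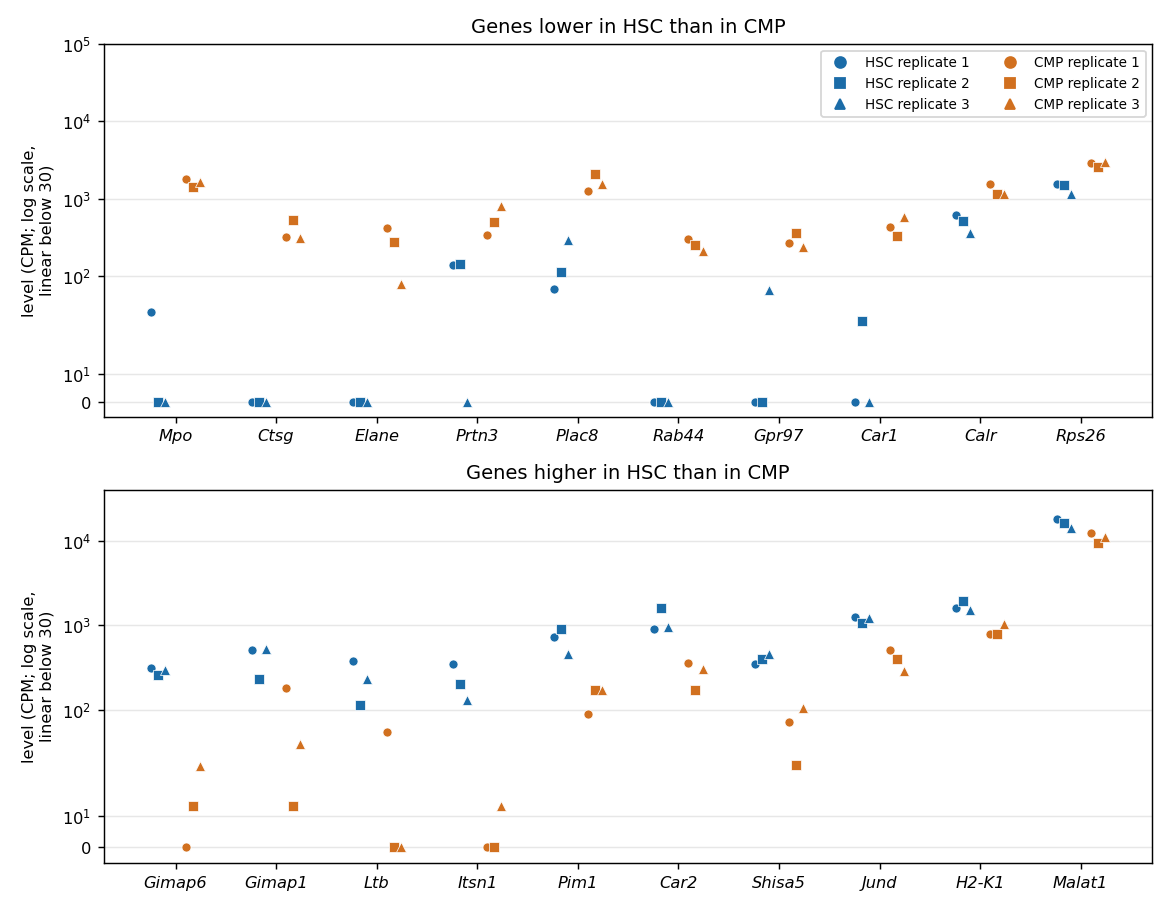
Expression of selected called genes in each library, in CPM on an axis that is logarithmic above 30 CPM and linear below, with HSC replicates left of CMP replicates and each point 1 library. Mpo and Ctsg sit at or near 0 in HSC, and Gimap6 has 309, 256 and 294 CPM in HSC, against 0, 13.2 and 26.2 CPM in CMP.

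Most genes of protein synthesis and folding had negative differences of small size. Of 78 cytosolic ribosomal protein genes tested, limma called 2 lower (background 0.239%) and 0 higher, 2 differences were positive, and the median was -0.35 against -0.10 over all genes; 38 of the 78 had HSC wholly below CMP, against 10.2% of all genes. Their sum was 176098, 152419 and 147601 CPM in HSC, against 191204, 213171 and 204690.0 CPM in CMP, without overlap. The median remained below that of all genes with TMM scaling (-0.53 against -0.23) and with RLE scaling (-0.32 against -0.08). It was smaller in size without HSC replicate 3 (-0.29 against -0.05) and without HSC replicates 2 and 3 (-0.18 against 0.04).

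Rps26, called lower, encodes a protein of the small ribosomal subunit and had 1547, 1510.2 and 1145 CPM in HSC, against 2890.2, 2575 and 2984 CPM in CMP. The groups did not overlap, and the log2 difference was -1.01 (SE 0.21, limma adjusted p 0.0303). The gene has a processed copy elsewhere in the genome, so its counts are uncertain. Of 41 ribosome biogenesis genes, which make and assemble ribosomal RNA and subunits, limma called 0, 3 differences were positive, the median was -0.69 and 10 lay wholly below CMP, against 10.2% of all genes.

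Among 17 chaperones of the endoplasmic reticulum tested, limma called Calr alone lower (background 0.239%), and the median was -0.60 with all libraries and -0.33 without HSC replicate 3. Calr, the calcium-dependent chaperone calreticulin, had 619, 513 and 360 CPM in HSC, against 1526, 1162 and 1165 CPM in CMP, a log2 difference of -1.35 (SE 0.29, limma adjusted p 0.0386). The list summed to 2991, 2935 and 2944 CPM in HSC, against 4829, 4238 and 3873 CPM in CMP. The cytosolic chaperone Hsp90ab1 was called lower as well (log2 difference -0.96, limma adjusted p 0.0262), and the mitochondrial co-chaperonin Hspe1 passed the edgeR quasi-likelihood test (edgeR log2 difference -1.80, adjusted p 0.0496) and missed limma (adjusted p 0.0606). Hspe1 has 6 named pseudogenes in GENCODE, so its counts are uncertain. Glycolysis genes (17 tested) and proteasome subunits (34 tested) had 0 calls by limma, with medians of -0.32 and -0.23, which were -0.15 and -0.11 without HSC replicate 3.

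Of 41 DNA replication genes tested, limma called 0, 9 differences were positive, the median was -0.80, and 9 lay wholly below CMP and 1 wholly above, against 10.2% and 6.39% of all genes. Their sum was 1272, 4331 and 6314 CPM in HSC, against 5762, 6575 and 5064 CPM in CMP; HSC replicate 1 had the lowest value and HSC replicate 3 overlapped CMP. Without HSC replicate 3, limma called 4 of the list lower (background 0.676%) and the median was -0.89; it was -1.52 without HSC replicates 2 and 3. Among those 4 were Mcm2, Mcm4 and Mcm7, subunits of the helicase that opens replication origins. Mcm7 had 34.4, 171 and 229 CPM in HSC, against 359, 555 and 314 CPM in CMP (log2 difference -2.01 without HSC replicate 3, limma adjusted p 0.0454; -1.59 with it, limma adjusted p 0.212).

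Mitosis genes went the other way with all libraries. Of 28 tested, 27 differences were positive, the median was 0.91, limma called 0, and the edgeR quasi-likelihood test called Mki67 higher of 5 it could test (background 2.62%; edgeR log2 difference 2.59, adjusted p 0.0388). Mki67, which encodes the proliferation antigen Ki-67, had 172, 1653 and 1799 CPM in HSC, against 395, 92.4 and 236 CPM in CMP. The high values stand in HSC replicates 2 and 3, the libraries with red cell and B lineage transcripts, and HSC replicate 1 lies within the CMP range. The list's median was 0.56 without HSC replicate 3. Without both libraries it was -0.31 and the difference of Mki67 was -0.25 (limma adjusted p 0.862).

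The GIMAP genes, a cluster on chromosome 6 that encodes GTPases best known from lymphocytes, were among the genes above CMP. All 6 members tested of 8 had positive differences, with a median of 2.13, limma called 1 higher (background 0.164%), and 4 of the 6 lay wholly above CMP, against 6.39% of all genes. Apart from Gimap1, the members tested passed the filter on low values only through HSC. The count of positive signs and the median are therefore not independent of that filter. The family summed to 1066, 883 and 1374 CPM in HSC, against 179.5, 26.4 and 118 CPM in CMP, and direction was the same with TMM and RLE scaling.

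Gimap6 had 309, 256 and 294 CPM in HSC, against 0, 13.2 and 26.2 CPM in CMP. Every HSC library stood above every CMP library, and the log2 difference was 3.20 (SE 0.53, limma adjusted p 0.00524). Without HSC replicate 3, the library with the most B lineage transcripts, it was 3.18 (limma adjusted p 0.00689). With all libraries, at 27 counts against 3, the ratio of pooled levels was 19.7, with an exact 95% interval of 6.08 to 102. It lies at 48701582 to 48708225 on the reverse strand of chromosome 6, and its neighbour Gimap1 had 516, 228 and 523 CPM in HSC, against 179.5, 13.2 and 39.3 CPM in CMP. Gimap1 passed the edgeR quasi-likelihood test (edgeR log2 difference 2.75, adjusted p 0.0333) and missed the limma threshold (adjusted p 0.0606). It overlaps the antisense transcript Gimap1os, and strand use is not stated.

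Ltb, which encodes lymphotoxin beta, had 378, 114 and 229 CPM in HSC, against 53.9, 0 and 0 CPM in CMP (log2 difference 2.85, SE 0.62, limma adjusted p 0.047). It was the only called member of 12 lymphoid priming genes tested (background 0.164%). The list had a median of 0.10 with all libraries, which turned to -0.45 without HSC replicate 3, to -0.71 without HSC replicates 2 and 3 and to -0.04 with TMM scaling. Itsn1, an endocytic scaffold protein, had 344, 199 and 131 CPM in HSC, against 0, 0 and 13.1 CPM in CMP (log2 difference 3.17, SE 0.58, limma adjusted p 0.014). Shisa5, a protein of the endoplasmic reticulum membrane, had 344, 399 and 458 CPM in HSC, against 71.8, 26.4 and 105 CPM in CMP (log2 difference 2.34, SE 0.46, limma adjusted p 0.023). For these 3 genes every HSC library was above every CMP library, against 6.39% of all genes. All 3 were picked as calls on these same libraries, so their lack of overlap is not independent of the call.

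Pim1, a kinase gene switched on by cytokine signals through STAT5, had 722, 912 and 458 CPM in HSC, against 89.8, 172 and 170.1 CPM in CMP. The log2 difference was 2.11 (SE 0.39, limma adjusted p 0.0147). Cish, another target of STAT5, had 172, 142 and 32.7 CPM in HSC, against 17.95, 0 and 0 CPM in CMP, with a limma adjusted p of 0.197 with all libraries and 0.0416 without HSC replicate 3. Car2, a carbonic anhydrase, had 894, 1596 and 949 CPM in HSC, against 359, 172 and 301 CPM in CMP (log2 difference 1.97, SE 0.34, limma adjusted p 0.0103). Malat1, an abundant nuclear long noncoding RNA, had 18428, 16556 and 14328 CPM in HSC, against 12279, 9546 and 11215 CPM in CMP, and its small log2 difference of 0.58 (SE 0.12) passed limma at an adjusted p of 0.0394. With TMM scaling the difference of Malat1 was 0.40 and it was not called (limma adjusted p 0.138).

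Immediate early genes, which respond to signals within minutes and also to tissue handling, were higher in part. Of 21 tested, limma called 1 higher (background 0.164%), 15 differences were positive and the median was 0.65. The edgeR quasi-likelihood test called 3 higher of the 9 it could test (background 2.62%). Without HSC replicate 3, limma called 3 higher (background 0.42%), 18 of 21 differences were positive and the median was 1.20. They summed to 10899, 8919 and 6150.0 CPM in HSC, against 5386, 4806 and 5457 CPM in CMP. Jund, an AP-1 subunit, had 1238, 1054 and 1210 CPM in HSC, against 503, 396 and 288 CPM in CMP (log2 difference 1.54, SE 0.30, limma adjusted p 0.0184). Zfp36, which promotes decay of AU-rich messenger RNAs, and Mcl1, a survival factor of the Bcl2 family, passed the edgeR quasi-likelihood test with edgeR log2 differences of 1.84 (adjusted p 0.0333) and 1.41 (adjusted p 0.0373). Fos and Jun, the best known of the list, had log2 differences of 0.20 (limma adjusted p 0.878) and -0.12 (limma adjusted p 0.906).

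Of 18 class I and interferon genes tested, limma called 0, and the median was 0.15 with all libraries and 0.33 without HSC replicate 3. The edgeR quasi-likelihood test called 2 higher of the 8 it could test, B2m and H2-K1 (background 2.62%). B2m, the light chain of class I molecules, had 2854, 2878 and 3075 CPM in HSC, against 1669.5, 1677 and 2041 CPM in CMP (edgeR log2 difference 0.91, adjusted p 0.00889). H2-K1, a heavy chain whose reads can be split with near copies, had 1616, 1938 and 1538 CPM in HSC, against 789.9, 779 and 1034 CPM in CMP (edgeR log2 difference 1.17, adjusted p 0.0101). The list summed to 8698, 9517 and 7229.5 CPM in HSC, against 5439, 5664 and 6399 CPM in CMP, so these groups did not overlap. B2m and H2-K1 hold a large part of each sum, which therefore does not stand for the list as a whole. Among the 18, 10 differences were positive, and 3 lay wholly above CMP and 2 wholly below, against 6.39% and 10.2% of all genes.

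Other genes that passed edgeR alone were H3f3b, which encodes the replacement histone H3.3, Btg1, an antiproliferative gene, Mll1 (Kmt2a in RefSeq), a histone methyltransferase that keeps Hox genes on, and Msn, which links actin to the membrane. Their edgeR log2 differences were 1.08, 2.43, 1.43 and 1.70, and in all 4 every HSC library was above every CMP library, against 6.39% of all genes. The 4 were picked as calls on these same libraries, so their lack of overlap is not independent of the call. Cd24a and the processed pseudogene Gm17821 also passed edgeR. Cd24a had 309, 1995 and 3958 CPM in HSC, against 233, 330.1 and 445 CPM in CMP, and Gm17821 had 1238, 1225 and 6379 CPM in HSC, against 862, 607 and 942 CPM in CMP. Both are carried by HSC replicate 3, or replicates 2 and 3, and Cd24a had a difference of -0.07 without replicates 2 and 3.

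**Figure D3:**
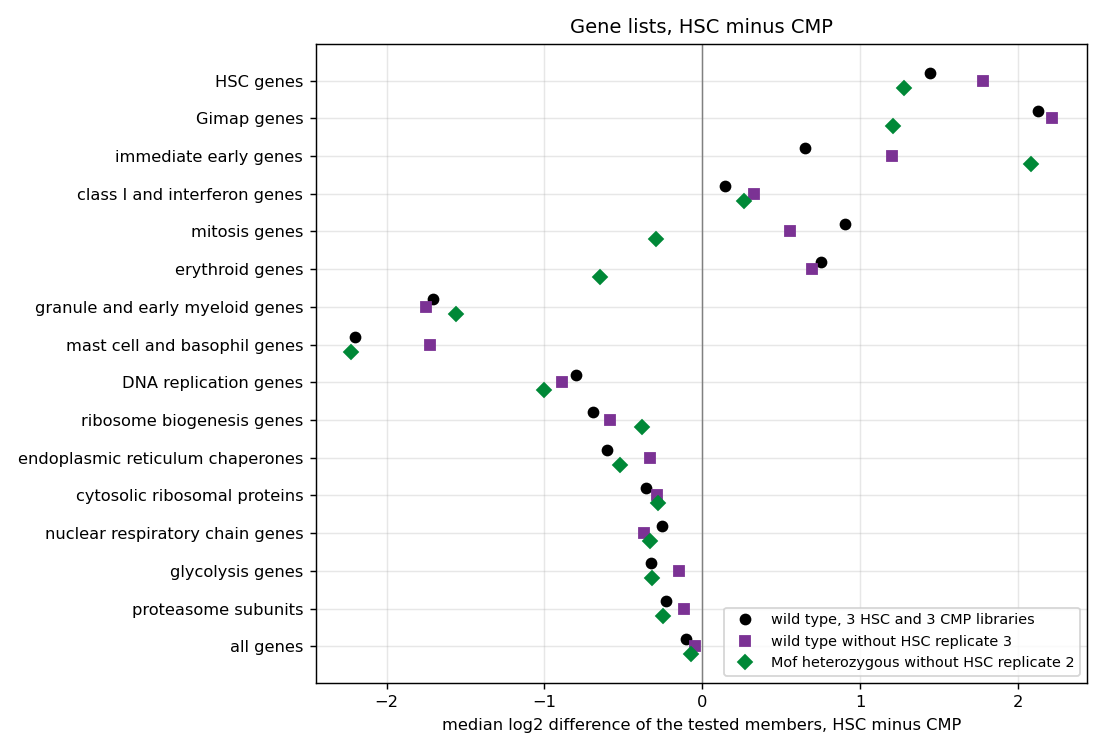
Median log2 difference, wild-type HSC minus wild-type CMP, of each gene list beside all genes, with all libraries (black) and without HSC replicate 3 (purple), and the same of heterozygous libraries without HSC replicate 2 (green). Granule genes lie at -1.71, -1.75 and -1.56, and HSC genes at 1.44, 1.78 and 1.28.

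The list of known HSC genes showed how much HSC replicate 3 weighs. With all libraries, 25 of its 37 genes were tested, limma called 2 higher (Gimap6 and Ltb, background 0.164%), 19 differences were positive, the median was 1.44 and 5 lay wholly above CMP, against 6.39% of all genes. Gimap6 is also the call given above for the GIMAP genes, and Ltb that for the lymphoid priming genes. These 2 calls are therefore not separate support for the HSC list. Without HSC replicate 3, 27 were tested, limma called 8 higher (background 0.42%), all 27 differences were positive and the median was 1.78. That library was left out because these genes are low in it, so the second count is not independent of the choice. Members that are low in CMP, such as Hlf and Ly6a, also passed the filter on low values only through HSC. The counts of positive signs are therefore in part set by that filter.

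Hlf, a transcription factor of stem cells, had 997, 484 and 0 CPM in HSC, against 35.9, 13.2 and 13.1 CPM in CMP. The log2 difference was 2.44 (SE 0.93, limma adjusted p 0.323) with all libraries, 4.11 (SE 0.50, limma adjusted p 1.18e-04) without HSC replicate 3 and 4.62 (limma adjusted p 0.0238) with HSC replicate 1 alone. Mllt3, a chromatin reader that supports stem cell maintenance, had 275, 484 and 65.4 CPM in HSC, against 17.95, 79.2 and 52.3 CPM in CMP (log2 difference 2.53 without HSC replicate 3, limma adjusted p 0.0176). Tsc22d1, a transcriptional regulator outside the list, had 516, 456 and 0 CPM in HSC, against 53.9, 39.6 and 91.6 CPM in CMP (log2 difference 2.65 without HSC replicate 3, limma adjusted p 0.00498). In Hlf and Tsc22d1 the other two HSC libraries were above every CMP library, and replicate 3 was below every one.

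Ifitm1, a small membrane protein induced by interferon, had 1031, 997 and 0 CPM in HSC, against 251, 264 and 327 CPM in CMP, so that its difference was -0.07 (limma adjusted p 0.989) with all libraries and 1.78 (limma adjusted p 0.00527) without HSC replicate 3. Pdzk1ip1, Trim47 and Nkx2-3 were called by limma when that library was left out and not otherwise, with differences of 2.86, 3.26 and 3.01 and adjusted p of 0.0168, 0.0152 and 0.0201. Meis1, a partner of Hox proteins, had 241, 199 and 0 CPM in HSC, against 162, 145 and 118 CPM in CMP, and its difference was 0.57 (SE 0.42, limma adjusted p 0.581) even without HSC replicate 3. Ifitm1, Pdzk1ip1, Trim47 and Nkx2-3, like Hlf, Mllt3 and Tsc22d1, were picked out of the calls made without that library after the values had been seen. Meis1, a member of the list, was also named after its values had been seen.

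**Figure D4:**
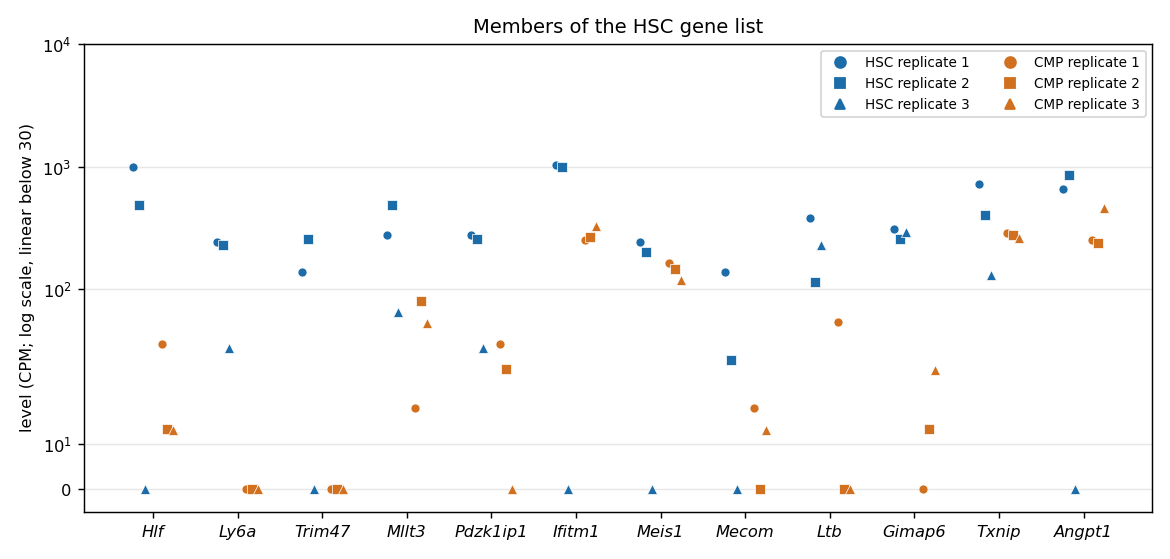
Expression of HSC genes in each library, in CPM on an axis that is logarithmic above 30 CPM and linear below, with HSC replicates left of CMP replicates and each point 1 library. Hlf has 997, 484 and 0 CPM in HSC, against 35.9, 13.2 and 13.1 CPM in CMP, and several genes are at 0 in HSC replicate 3.

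The transcripts of the sorted surface proteins can be set against the gates. Of 9 such genes 7 were tested, and limma called 0 with all libraries. Without HSC replicate 3 it called 1 of 8 higher, Ly6a (background 0.42%). Ly6a, which encodes Sca-1, had 241, 228 and 32.7 CPM in HSC and 0 CPM in all 3 CMP libraries, at least 11.7-fold higher by the floor of 3 counts over the CMP group (limma adjusted p 0.0882 with all libraries and 0.00527 without HSC replicate 3). The gate chose HSC as positive and CMP as negative for this protein. Cd34 had 103, 57.0 and 0 CPM in HSC, gated negative, against 215, 290.5 and 170.1 CPM in CMP, gated positive (log2 difference -2.01, SE 0.59, limma adjusted p 0.18).

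Kit, on which both gates are positive, had 688, 342 and 32.7 CPM in HSC, against 305, 251 and 497 CPM in CMP. Flt3 had 34.4, 0 and 0 CPM in HSC, gated negative, against 53.9, 106 and 131 CPM in CMP (limma adjusted p 0.266). Il7r, which the HSC gate does not name and the CMP gate excludes, had 0, 171 and 393 CPM in HSC and 0 CPM in all CMP libraries. Its HSC values stand in replicates 2 and 3, those with B lineage transcripts. Slamf1, which encodes CD150, was too rare to test, with 2 counts in HSC and 4 in CMP.

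Some red cell genes were above CMP in HSC, and not evenly across its libraries. Of 21 erythroid genes tested, limma called 4 higher (Beta-s, Alas2, Hba-a1 and Car2; background 0.164%) and 1 lower (Car1; background 0.239%). The list's median was 0.75 with all libraries, 0.69 without HSC replicate 3 and -1.53 without HSC replicates 2 and 3. Beta-s, an adult beta globin named Hbb-bs in RefSeq, had 6945, 34108 and 25582 CPM in HSC, against 197, 26.4 and 0 CPM in CMP (log2 difference 8.21, SE 0.59, limma adjusted p 9.37e-08). Alas2, which starts haem synthesis in red cells, had 172, 285 and 393 CPM in HSC and no count in CMP, at least 19.7-fold higher (limma adjusted p 0.00188). Hba-a1, an alpha globin with a near-identical twin gene, had 103, 256 and 360.0 CPM in HSC, against 35.9, 0 and 0 CPM in CMP (log2 difference 2.96, limma adjusted p 0.0303 with all libraries and 0.06 without HSC replicate 3).

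In all 3 genes HSC replicate 1 was the lowest of the HSC libraries. With that library alone, Beta-s missed the limma threshold (log2 difference 6.82, adjusted p 0.0564), as did Alas2 (adjusted p 0.087) and Hba-a1 (adjusted p 0.215). Of 16 B lineage markers, 15 passed the filter on low values with all libraries and 8 without HSC replicate 3, where most of their counts lie, so the sign of their differences was largely set by the filter. Limma called 0 of the 15, and the median of those tested was 1.78 with all libraries, 0.60 without HSC replicate 3 and -1.25 with HSC replicate 1 alone. Whether red cells, their free RNA or other cells of the marrow entered the sorts was not tested.

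Mof itself could not be compared. Kat8 had 2 counts in the wild-type HSC libraries and 4 in the wild-type CMP libraries, below the filter, and the ratio of pooled levels was 1.10, with an exact 95% interval of 0.0992 to 7.65. In Mof -/+ libraries it had 1 count in HSC and 3 in CMP, so the genotype cannot be checked from it; the deleted part of the gene is not given in the labels. Of 10 tested genes of the MSL and NSL complexes, in which the enzyme works, limma called 0, with a median of -0.15 that turned to 0.15 without HSC replicate 3.

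The amount of messenger RNA was compared through spike-in transcripts, whose input per library is not given in the labels. Gene counts per spike-in count were 30.7, 16.2 and 10.4 in HSC, against 51.2, 33.2 and 33.2 in CMP. All HSC libraries lay below all CMP libraries, and the log2 ratio averaged 4.11 ± 0.79 in HSC and 5.26 ± 0.36 in CMP (SD, n = 3 each), a difference of -1.15. A two-sided exact permutation test gave p = 0.1, the smallest that 3 libraries against 3 can give. Thinned in expectation to the 29086 counts of the shallowest library, HSC libraries showed 6519, 6613 and 6287 genes, against 6197, 6324 and 6212 genes in CMP; the difference of 228 genes was not beyond the spread (two-sided exact permutation p = 0.2). Before thinning, HSC libraries had 6519, 7102 and 6421 genes and CMP libraries 7744, 8542 and 8396.

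The Mof -/+ libraries share no library or pool with the wild-type ones and were fitted on their own. They held 51873, 1577 and 21466 counts in HSC and 61631, 89116 and 123765 in CMP. With all 6, limma called 2 genes higher in HSC (0.031% of 6454) and 6 lower (0.093%). Without HSC replicate 2, which has 1577 counts, it called 19 higher (0.279% of 6803) and 23 lower (0.338%), and the values that follow leave it out unless stated.

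Genes below CMP in wild type were mostly below in these libraries as well. All 16 genes called lower in wild type were tested, 15 had the same sign and 9 were called (Mpo, Ctsg, Elane, Car1, Rab44, Plac8, Gpr97, Fam46a and Calr). With all Mof -/+ libraries, 2 of the 16 were called. Mpo had no count in any of the 3 heterozygous HSC libraries, against 2109, 1582 and 3434 CPM in heterozygous CMP (log2 difference -6.69, SE 0.35, limma adjusted p 8.2e-09). Prtn3, which missed limma in wild type, was called here, with 57.8 and 186 CPM in HSC replicates 1 and 3, against 617, 808 and 1584 CPM in CMP (log2 difference -2.88, limma adjusted p 0.00266). Ndufs3 had the opposite sign, with 116 and 139.8 CPM in HSC, against 48.7, 157 and 97.0 CPM in CMP (log2 difference 0.38, limma adjusted p 0.763), and S100a9 did not pass (log2 difference -0.57, limma adjusted p 0.774).

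Of the 11 genes above CMP in wild type, 8 were tested, all 8 had the same sign, and 1, Jund, was called, with 424 and 1398 CPM in HSC, against 243, 146 and 137 CPM in CMP (log2 difference 2.05, limma adjusted p 0.0334). The 3 not tested were Beta-s, Alas2 and Hba-a1, which had too few counts. Gimap6 had 38.6 and 326 CPM in HSC, against 48.7, 33.7 and 32.3 CPM in CMP; its heterozygous HSC libraries differed and it did not pass (log2 difference 1.28, SE 0.64, limma adjusted p 0.384).

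Stem cell genes that needed HSC replicate 3 to be left out in wild type can be read here without that choice. The choice to leave out heterozygous HSC replicate 2 still applies. Of the 28 genes called higher without wild-type HSC replicate 3, 4 were called here: Hlf, Mllt3, Tsc22d1 and Jund. Ly6a, Ifitm1, Pdzk1ip1, Trim47 and Nkx2-3 were not called. With all Mof -/+ libraries, 0 of the 28 were called. Hlf had 578 and 699 CPM in heterozygous HSC, against 32.5, 11.2 and 48.5 CPM in heterozygous CMP (log2 difference 3.71, SE 0.45, limma adjusted p 3.66e-04). Mllt3 and Tsc22d1 were called as well, with log2 differences of 2.54 (limma adjusted p 0.0281) and 1.82 (limma adjusted p 0.0334). H2afy, which encodes the histone variant macroH2A1, was lower in heterozygous HSC, at 366 and 978 CPM, against 1314, 2939.99 and 2788 CPM in heterozygous CMP (log2 difference -1.84, limma adjusted p 0.0237). In wild type it had 653, 826 and 916 CPM in HSC, against 1777, 1650.3 and 1609.6 CPM in CMP, which missed the threshold (log2 difference -1.06, limma adjusted p 0.0606).

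In the heterozygous libraries limma called 5 of 18 granule genes lower (background 0.338%), with a median of -1.56 against -0.07 over all genes. Here too, Mpo passed the filter on low values only through CMP. It called 2 of 27 HSC genes higher (background 0.279%), with a median of 1.28. Of 22 immediate early genes it called 9 higher (background 0.279%), with a median of 2.08. Immediate early genes summed to 4569, 5707 and 18401 CPM in heterozygous HSC, all replicates, against 1363, 1784 and 1519 CPM in heterozygous CMP; in wild type the CMP values were 5386, 4806 and 5457 CPM. B lineage markers summed to 2217 CPM in heterozygous HSC replicate 1 and to 93.2 CPM or less in the other two. Ribosomal protein genes had a median of -0.28, replication genes -1.001, and mitosis genes -0.29. The difference between the genotypes was tested gene by gene with an interaction term over the 12 libraries, and limma called 2 of 6793 genes, Beta-s and Rn45s, at an adjusted p of 0.0191 each; 287 genes had an unadjusted p under 0.05.

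**Figure D5:**
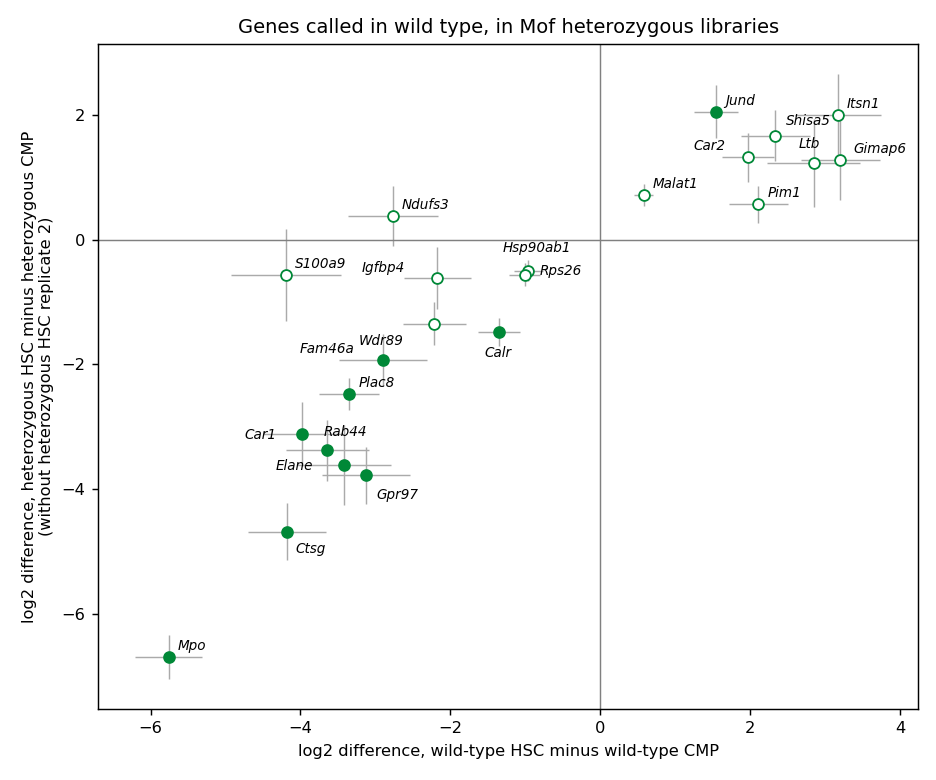
Log2 difference, HSC minus CMP, in wild-type libraries (x axis) and in heterozygous libraries without HSC replicate 2 (y axis) for genes that limma called in wild type and that were tested in both, with lines for 1 SE; filled points were also called in the heterozygous libraries. Mpo lies at -5.76 and -6.69, Ndufs3 at -2.77 and 0.38, and Beta-s, Alas2 and Hba-a1 are not shown because they were not tested in the heterozygous libraries.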

How the data were processed

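Wild-type and Mof -/+ bone marrow cells were sorted and made into CEL-Seq2 libraries, per the labels' protocols, and the submitters' processing notes name BWA 0.6.2-r126 and mm10. For the collapse of molecular identifiers, the counter and the annotation, the sources used here say nothing. The authors deposited a signal per gene: counts divided by 1 size factor per library. Each value divided by the smallest positive one of its library came out whole (100% within 0.01 counts), which recovers the counts. In the wild-type MEP table, used in the fits on more populations, the 92 spike-in names are lacking and were put back by line order. The design had foreseen this unit, and limma on scaled values stayed the main test.

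Counts of 23538 genes, without spike-ins, were scaled to a common total of 45399.5 (1 unit is 22.0 CPM) and taken as log2(value + 1). Genes with a mean of at least 1 unit were tested with limma 3.58.1 (R 4.3.3), trend on, Benjamini-Hochberg over all genes tested, threshold 0.05. edgeR 4.0.16 (quasi-likelihood, TMM, filterByExpr) was the count test, and DESeq2 1.42.0 an alternative. Gene counts per spike-in count and genes detected were compared with two-sided exact permutation tests. The limma and edgeR steps were tested on simulated data with known answers. The simulation gave both groups the same spread and changed only genes above a minimum expected count. It therefore does not cover HSC libraries that vary more than CMP libraries, or genes with few counts. Exact intervals cover counting error only. A gene at 0 in a group was bounded with 3 counts over the group.

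The members and the 29 gene lists were chosen with earlier results of these data known. Named genes are, in each direction, up to 15 called by limma by size, filled up with edgeR calls by p, then from each list the called members and up to 4 of highest mean CPM, the sorted surface proteins, Kat8, Gimap6, Mpo and Gata2. The text describes a choice of these. Named outside that rule, after their values were seen, are the rest of the called genes (Hsp90ab1, Hspe1, Mll1, Msn, Cd24a and Gm17821), the genes called without HSC replicate 3, Meis1 and H2afy. Of the alternatives, those without HSC replicates 2 and 3 and without HSC replicate 3 and CMP replicate 2, and 3 refits of the heterozygous or 12-library fits (edgeR without heterozygous HSC replicate 2 in each, and limma without that library and wild-type HSC replicate 3), were chosen after seeing the data. One called gene is not reported here. Promoters are RefSeq's for GRCm38.p6, and gene spans are from GENCODE vM21.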

Additional observations from a re-analysis of the deposited data

Results flagged for a closer look

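The difference between HSC and CMP itself differed between genotypes for 3 genes by an interaction test over the 12 libraries, Mof -/+ minus wild type. For Beta-s the interaction was -7.25 on the log2 scale (SE 1.42, limma adjusted p 0.0191). It had 0, 634 and 0 CPM in heterozygous HSC and 0, 67.3 and 0 CPM in heterozygous CMP, against 6945, 34108 and 25582 CPM in wild-type HSC and 197, 26.4 and 0 CPM in wild-type CMP. The 634 CPM of Beta-s in heterozygous HSC replicate 2 is 1 count. The call remained without heterozygous HSC replicate 2 (limma adjusted p 2.01e-06) and also without wild-type HSC replicate 3 (limma adjusted p 7.57e-06), and edgeR gave an adjusted p of 0.0855. Genotype and pool cannot be told apart.

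For Rn45s, the row of the ribosomal RNA precursor, the interaction was 2.05 (SE 0.41, limma adjusted p 0.0191). It had 41814, 213063 and 38060.2 CPM in heterozygous HSC and 13565, 8315 and 8742 CPM in heterozygous CMP, against 49096, 23423 and 40008 CPM in wild-type HSC and 29154, 14629 and 22219.9 CPM in wild-type CMP. Without heterozygous HSC replicate 2, a library of 1577 counts that holds the highest value, it was 1.24 (limma adjusted p 0.237), so the call rests on that library.

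Klf6, an immediate early gene, was called by edgeR alone, with an interaction of 3.82 (adjusted p 0.00834), against 3.15 in limma (adjusted p 0.9). It had 251, 634 and 1398 CPM in heterozygous HSC and 32.5, 22.4 and 32.3 CPM in heterozygous CMP, against 894, 570 and 491 CPM in wild-type HSC and 682, 290.5 and 432 CPM in wild-type CMP. The 634 CPM of Klf6 in heterozygous HSC replicate 2 is 1 count. The low values are those of heterozygous CMP. Without heterozygous HSC replicate 2 the edgeR adjusted p was 0.0637.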

How the results depend on the processing

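Limma's 27 calls became 51 with TMM (10 higher, 41 lower), 10 with a pseudocount of 0.25, 15 with a minimum mean of 5, 5 in a fit on all 18 wild-type libraries, 6 in a fit on 12 of them, 20 without HSC replicates 2 and 3, and 8 without HSC replicate 3 and CMP replicate 2. DESeq2 called 40. RLE scaling changed none of the 27, and a pseudocount of 4 gave 31. Leaving out 1 library gave 4 to 118 calls by limma: 4, 7 and 8 without CMP replicates 1, 2 and 3, 118, 6 and 73 without HSC replicates 1, 2 and 3. By edgeR it gave 2 to 116, and edgeR's 33 calls became 179 (of 11478 genes) with every gene of at least 1 count, 66 without HSC replicates 2 and 3 and 17 without HSC replicate 3 and CMP replicate 2. Mpo and Ctsg were called in 18 of 18 alternatives, Beta-s and Plac8 in 17 and Car1 in 16. The heterozygous count of 8 became 3 with a pseudocount of 4, 28 with edgeR, 35 with edgeR without HSC replicate 2, and 0 to 42 when 1 library was left out (0 by limma without HSC replicate 1, with 1282 genes at an unadjusted p under 0.05). The 2 interaction calls became 0 with a pseudocount of 4 (302 unadjusted), 1 with edgeR, 0 with edgeR without heterozygous HSC replicate 2 (96 unadjusted), and 1 by limma without it, with or without wild-type HSC replicate 3. Cause was not tested. Differences changed sign for Cd24a (-0.0685) and Mki67 (-0.25) without HSC replicates 2 and 3. That of Ifitm1, -0.07 with all libraries, was -1.01 without HSC replicate 1, 0.37 with a pseudocount of 4, 0.038 without CMP replicate 3, 1.75 without HSC replicate 3 and CMP replicate 2, 1.78 without HSC replicate 3, 1.81 without HSC replicates 2 and 3, 1.45 in edgeR and 1.28 in DESeq2. Gene counts per spike-in count and genes detected kept their direction in every alternative run. No paired analysis was possible because HSC and CMP libraries share no replicate number in the labels. At 15 cells and 29086 to 35094 counts per HSC library, the counts limit what can be said of genes that have few or none in HSC.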
